A study of Oryza sativa with 4 samples.

Results

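The ethylene synthesis and signalling genes of rice were examined in the mre11 mutant. They were taken as every gene model to which the deposited annotation gives a KEGG orthology (KO) identifier of the pathway. The classes were ACC synthase, ACC oxidase, the ethylene receptors, the kinase CTR1, EIN2, EIN3, the EBF F-box proteins, ERF1 and the EREBP transcription factors. This rule found 140 of the 55986 gene models, and it used no measured value. Of these, 89 were EREBP, 13 ACC oxidase, 10 EIN3, 9 receptors, 5 ACC synthase, 4 CTR1, 4 EIN2, 4 ERF1 and 2 EBF. Of the 10 KO identifiers searched, 9 had at least 1 gene model, and the alternative identifier for ACC synthase, K20772, had 0. Genes are called here by their locus identifier and their KO class, because the RefSeq gene table matched 0 of the 140 identifiers.

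RNA-seq was done on seedlings of japonica rice. The mre11 seedlings carried a T-DNA insertion in an intron of OsMre11, which encodes a nuclease of DNA double-strand break repair, and the wild type (WT) was Dongjin. The comparison addressed which genes depend on OsMre11 in young plants. Both genotypes were 7 days old, each had 2 libraries, and each library pooled 3 plants, and the organs taken are not stated beyond seedlings. The mutant was a single insertion line, whose homozygous plants are dwarf.

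Ethylene is a gaseous plant hormone. S-adenosylmethionine is turned into ACC by ACC synthase, and ACC oxidase turns ACC into ethylene. In the pathway as worked out in Arabidopsis, the receptors and CTR1 hold the response off while ethylene is absent. Binding of ethylene relieves this, EIN2 then carries the signal to the nucleus, and the EIN3 transcription factors accumulate because they are no longer removed through the EBF proteins. EIN3 switches on ERF1, and ERF1 and many EREBP factors share the AP2/ERF DNA-binding domain. The EREBP class is broad, and many factors of this family act in responses to drought, cold or wounding. In rice seedlings, ethylene is known to shape the growth of roots and coleoptiles.

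The counts on gene models summed to 19004825 and 17170661 in the mre11 libraries, against 12753324 and 16460543 in the WT libraries. Levels are given as CPM, in which each count is divided by the size of its library after TMM scaling, a correction for differences in composition between libraries. For LOC_Os04g54340, the targeted gene Mre11, there were 132 and 118 counts in mre11, against 306 and 471 counts in WT, and it was lower by edgeR's quasi-likelihood test (log2 fold change -2.09, adjusted p = 0.00141). Root markers (nitrate transporter NRT2 and nicotianamine synthase genes) summed to 50.7 and 50.9 CPM in mre11, against 23.4 and 14.4 CPM in WT. Most of this sum came from nicotianamine synthase gene LOC_Os07g48980, with 47.4 and 29.0 CPM in mre11, against 20.4 and 13.4 CPM in WT. NRT2 gene LOC_Os01g50820 had 1.06 and 0.852 CPM in mre11, against 0.840 and 0.445 CPM in WT, and was not called. Of the 8 root marker models, 4 were tested, 2 of them were higher and 2 of the 8 were at 0 in every library. The higher ones were LOC_Os07g48980 and LOC_Os03g19420, and the latter had 28 and 260 counts in mre11, against 2 and 0 counts in WT. Shoot markers (Rubisco small subunit and light-harvesting genes) summed to 13285 and 22646 CPM in mre11, against 8527 and 13349 CPM in WT, and 2 of the 8 tested were higher. Rubisco genes LOC_Os12g17600, LOC_Os12g19381 and LOC_Os12g19470 were not called (log2 fold change -0.28, -0.07 and 0.01). The less abundant Rubisco gene LOC_Os02g05830 was called higher (1.90). So was light-harvesting gene LOC_Os03g39610 (1.58), with 2536 and 4135 CPM in mre11, against 845 and 1383 CPM in WT. Light-harvesting genes LOC_Os01g41710 (1.21), LOC_Os09g17740 (0.88) and LOC_Os01g52250 (0.21) were not called. In these genes too, both mre11 libraries lay above both WT libraries. The alpha-amylase genes of germinating seed summed to 43.5 and 69.3 CPM in mre11, against 60.6 and 55.9 CPM in WT, and 0 of 4 were called. The part that organ proportions have in the results on ethylene genes was not tested. In such bulk samples, fewer cells of a type and less RNA per cell cannot be told apart.

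Outside the EREBP class, 27 of the 32 tested ethylene genes had a negative fold change in mre11, whereas the EREBP genes went in both directions. Of all 24470 tested genes, 12558 had a log2 fold change above 0. A gene was called higher or lower where the adjusted p of edgeR's test over all 24470 tested genes was under 0.05 and the difference was at least 2-fold. Of the 140 ethylene genes, 91 had enough counts to be tested. Of these, 8 (8.79%) were called higher in mre11, against 12.0% of all tested genes. Another 18 (19.8%) were called lower, against 9.31% of all tested genes, and 65 were not called. Together these were 28.6% of the tested ethylene genes, against 21.3% of all tested genes. Without the fold condition, 11 were higher and 34 (37.4%) were lower, against 18.8% and 18.3% of all tested genes. The median log2 fold change of the 91 genes was -0.49, against 0.03 over all tested genes. These counts and medians are a description of the class members and not a test of the group.

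The 2 mre11 libraries lay below both WT libraries in 50 (54.9%) of the 91 genes, against 35.7% of all tested genes. They lay above both in 20 genes (22%), against 37.5% of all, and the groups overlapped in 21. Over all tested genes, 73.2% had groups that did not overlap in either direction. Passing the low-count filter depended on 1 genotype for 9 of the 91 genes. In 4 of them only mre11 reached the filter's level in both libraries and in 5 only WT did, and 5 of these 9 are among the called genes. The counts were as follows by class, with no test of a difference between classes. Outside the EREBP class, 32 genes were tested, 5 had a log2 fold change above 0, 1 was called higher and 9 were called lower, with a median of -0.74. The shares called were 3.12% higher and 28.1% lower, against 12.0% and 9.31% of all tested genes. Among the 59 tested EREBP genes, 26 were above 0, 7 were called higher and 9 lower, and the median was -0.05. The EREBP shares called were 11.9% higher and 15.3% lower, and the higher share was near the 12.0% of all tested genes. The sign of this EREBP median was not stable. It was positive under upper-quartile scaling (0.04), library-size scaling (0.11), DESeq2 (0.03) and no filter on low counts (0.05). It was also positive with limma on log2(RPKM + 1) (0.04) or log2(RPKM + 0.1) (0.07), and without WT replicate 1 (0.02). The median over all genes outside the EREBP class was negative under every scaling, filter and tool tried and without each library, between -0.81 and -0.47. Among the single classes outside EREBP, only the EIN2 median changed sign. It was -1.35 with 2 genes tested, but 0.05 under DESeq2 and 0.36 with no filter, each with 4 tested. The ACC oxidase median of -0.55 moved to -0.03 under DESeq2 and -0.007 with no filter.

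The number of calls depended on single libraries. When each library was left out in turn, 6 ethylene genes were called higher without mre11 replicate 1, 8 without mre11 replicate 2, 1 without WT replicate 1 and 1 without WT replicate 2. The number called lower was 13, 18, 15 and 11 in the same order of omission. Of the 18 genes called lower, 9 were called in all 4 of these fits, namely 1 CTR1 gene and 8 EREBP genes, and of the 8 called higher, 1 EREBP gene was.

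**Figure D1:**
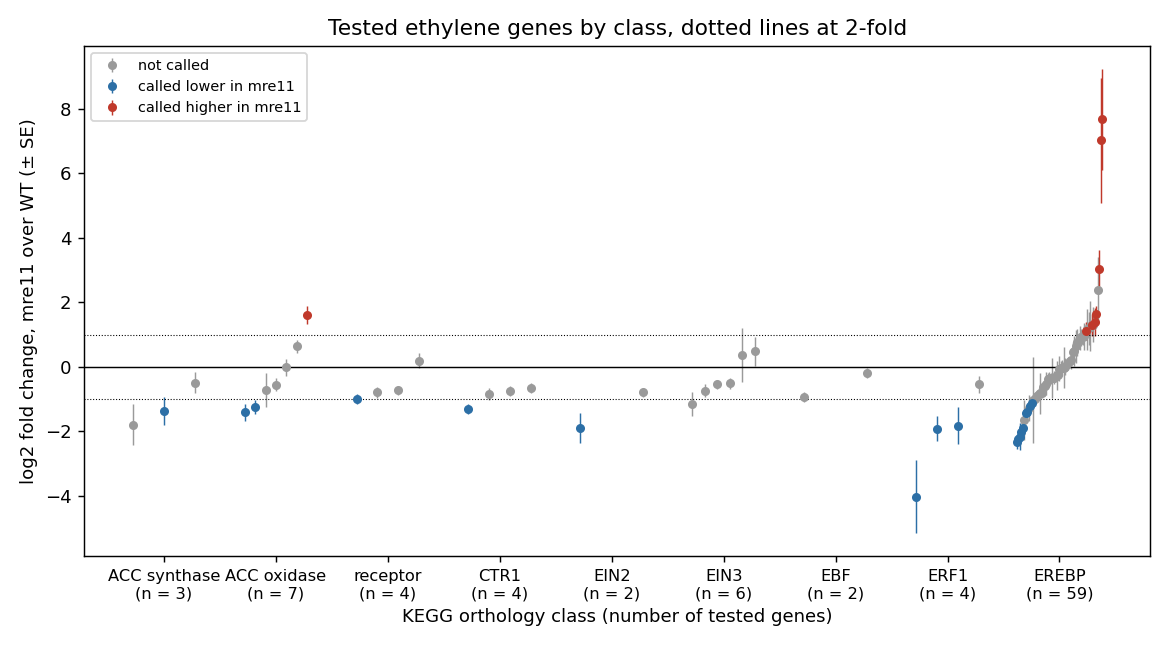
Fitted log2 fold change, mre11 over WT, of the 91 tested ethylene genes, with 1 point per gene and bars for the SE, grouped by KO class and coloured by call. The points of CTR1, EIN2, EBF, ERF1 and ACC synthase all lie below 0, whereas the EREBP points spread on both sides, from -2.34 to 7.68.

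Transcripts of ACC synthase, the enzyme that is often rate-limiting for ethylene, were scarce in both genotypes. The class summed to 3.48 and 4.60 CPM in mre11, against 7.06 and 9.04 CPM in WT. Of the 5 gene models, 3 were tested. All 3 had both mre11 libraries below both WT libraries, against 35.7% of all tested genes. LOC_Os03g51740 had 0.724 and 0.852 CPM in mre11, against 2.10 and 1.97 CPM in WT, and was called lower (log2 fold change -1.36, SE 0.434, edgeR adjusted p = 0.0493). This call was near the threshold and was lost when any of the 4 libraries was left out, with adjusted p between 0.152 and 0.211. LOC_Os04g48850, the most abundant gene of the class, had 2.32 and 2.73 CPM in mre11, against 3.44 and 3.63 CPM in WT, a difference that did not pass the test (log2 fold change -0.49, adjusted p = 0.285). LOC_Os01g09700 had 0.435 and 1.02 CPM in mre11, against 1.51 and 3.44 CPM in WT (log2 fold change -1.79, adjusted p = 0.0639). This gene reached the low-count filter's level in both libraries only in WT.

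The ACC oxidase genes, which encode the enzyme of the last step, did not move together. Of 13 gene models, 7 were tested. Of these, 1 (14.3%) was called higher and 2 (28.6%) were called lower, against 12.0% and 9.31% of all tested genes. LOC_Os02g53180 had 63.7 and 91.6 CPM in mre11, against 166 and 202 CPM in WT (log2 fold change -1.25, SE 0.211, edgeR adjusted p = 0.00673), the highest CPM of the class in WT. By deposited RPKM, the counts per library total and length, it averaged 45.6 in WT. LOC_Os09g27750, LOC_Os09g27820 and LOC_Os05g05680 were above it on that scale, with 75.8, 54.7 and 46.6 RPKM in WT. LOC_Os05g05670 fell too, with 17.9 and 27.9 CPM in mre11, against 51.4 and 70.4 CPM in WT (log2 fold change -1.41, SE 0.257, adjusted p = 0.00834). Neither fall was called without WT replicate 2, where the adjusted p was 0.0552 for LOC_Os02g53180 and 0.0654 for LOC_Os05g05670. LOC_Os01g39860 rose, with 28.3 and 17.6 CPM in mre11, against 7.73 and 7.38 CPM in WT (log2 fold change 1.60, SE 0.273, adjusted p = 0.00674). Without WT replicate 1 its adjusted p was 0.054 and without WT replicate 2 it was 0.0605.

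LOC_Os05g05680 is the gene model next to LOC_Os05g05670 in the files, and its levels lay on the other side. It had 98.7 and 115 CPM in mre11, against 55.1 and 82.3 CPM in WT, and was not called (log2 fold change 0.63, adjusted p = 0.0566). LOC_Os09g27750 had 64.1 and 96.5 CPM in mre11, against 126 and 109 CPM in WT (log2 fold change -0.55, adjusted p = 0.0889). LOC_Os09g27820 varied most within mre11, with 21.3 and 82.1 CPM, against 81.6 and 87.6 CPM in WT, so that the fitted log2 fold change of -0.71 became -0.04 without mre11 replicate 1 and -1.997 without mre11 replicate 2, where the gene was called lower. LOC_Os10g41020 was level, at 5.80 and 5.63 CPM in mre11, against 5.88 and 5.66 CPM in WT. Summed over the class, ACC oxidase reached 301 and 437 CPM in mre11, against 495 and 565 CPM in WT.

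**Figure D2:**
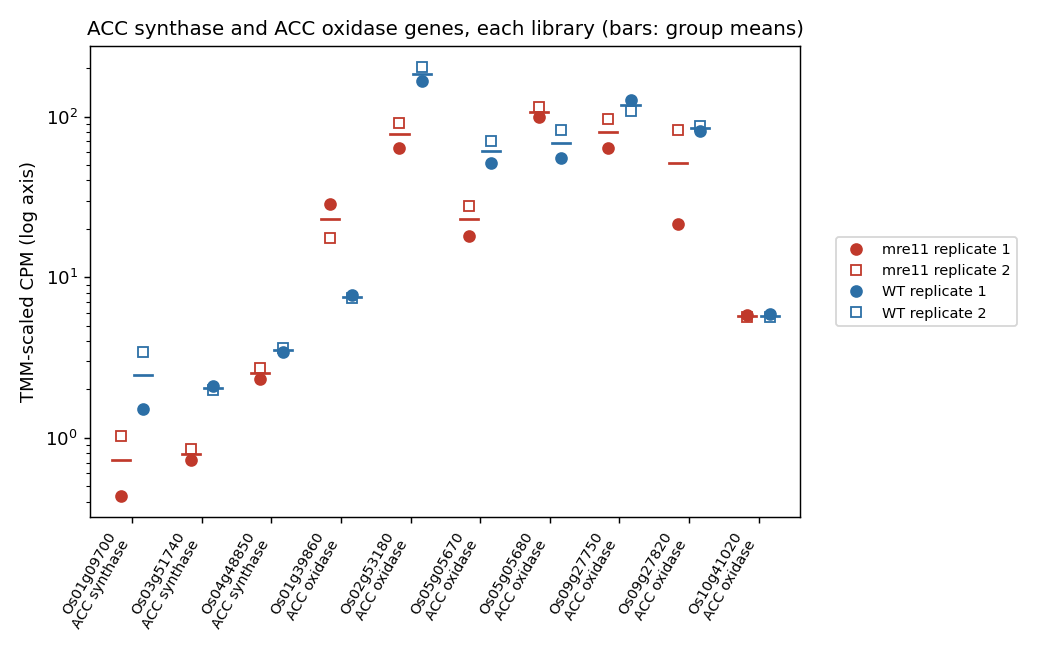
TMM-scaled CPM (log axis) of the 10 tested ACC synthase and ACC oxidase genes in each library, with circles for replicate 1, squares for replicate 2 and bars for the group means. The mre11 points of LOC_Os01g39860 lie above the WT points, those of LOC_Os02g53180 and LOC_Os05g05670 lie below, and all ACC synthase genes are under 4 CPM.

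Of the 9 receptor models 4 were tested. In 3 of these both mre11 libraries lay below both WT libraries, against 35.7% of all tested genes. The receptors summed to 145 and 158 CPM in mre11, against 236 and 266 CPM in WT. LOC_Os04g08740 had 33.95 and 33.98 CPM in mre11, against 62.0 and 74.3 CPM in WT (log2 fold change -1.005, SE 0.148, edgeR adjusted p = 0.00438). It was called lower, but only just passed 2-fold, and was under it without mre11 replicate 1 (-0.997) and without WT replicate 2 (-0.88). It was also under 2-fold, so that 0 receptors were called, with upper-quartile scaling, library-size scaling, no filter on low counts and both limma fits. LOC_Os03g49500, the most abundant receptor, had 76.2 and 84.2 CPM in mre11, against 129 and 137 CPM in WT (log2 fold change -0.73, adjusted p = 0.00882). LOC_Os02g57530 had 18.1 and 22.6 CPM in mre11, against 33.1 and 37.3 CPM in WT (log2 fold change -0.79, adjusted p = 0.0165). Both differed by less than 2-fold and were therefore not called. The fourth, LOC_Os05g06320, overlapped between the genotypes, with 16.5 and 17.4 CPM in mre11, against 12.1 and 17.4 CPM in WT.

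The KO class named for CTR1, the kinase that works directly under the receptors, was lower in all of its gene models. Whether each of them has that role in rice was not tested. All 4 gene models were tested, and in all 4 both mre11 libraries lay below both WT libraries with an adjusted p under 0.05. Over all tested genes, 35.7% lay below in this way and 18.3% were lower at that adjusted p. LOC_Os02g32610 had 48.4 and 41.4 CPM in mre11, against 112 and 111 CPM in WT, and was called lower (log2 fold change -1.31, SE 0.141, edgeR adjusted p = 0.00186). It remained called without each of the 4 libraries. LOC_Os03g06410, the most abundant member, had 80.8 and 81.0 CPM in mre11, against 126 and 146 CPM in WT (log2 fold change -0.75, adjusted p = 0.00928). LOC_Os09g39320 (log2 fold change -0.85, adjusted p = 0.0167) and LOC_Os10g29540 (-0.65, adjusted p = 0.0175) were likewise under 2-fold. The class summed to 164 and 158 CPM in mre11, against 292 and 320 CPM in WT.

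EIN2 relays the signal from the membrane to the nucleus. Nearly all reads of the class fell on LOC_Os03g49400, which had 49.7 and 47.3 CPM in mre11, against 80.6 and 87.8 CPM in WT. The groups did not overlap and the adjusted p was 0.00615, but the log2 fold change of -0.79 (SE 0.131) was under 2-fold. LOC_Os07g06130 had 13 and 13 counts in mre11, against 37 and 32 counts in WT, and was called lower (log2 fold change -1.90, SE 0.464, edgeR adjusted p = 0.0215). This call was lost when any of the 4 libraries was left out, with adjusted p between 0.0576 and 0.124. LOC_Os07g06190 lies 3 models away and went untested with 4 and 8 counts in mre11, against 1 and 2 counts in WT, and the remaining model, LOC_Os07g06300, had 1 count in all.

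EIN3, the transcription factor class at the head of the nuclear response, had 10 gene models, of which 6 were tested and 0 were called. By unadjusted p with at least 2-fold, the single EIN3 gene past the threshold was LOC_Os03g20780, with 1.35 and 1.65 CPM in mre11, against 3.44 and 3.18 CPM in WT (log2 fold change -1.14, adjusted p = 0.0519). DESeq2 and limma also called 0 EIN3 genes, and edgeR with no filter on low counts called 1. LOC_Os07g48630, the most abundant, had 110 and 144 CPM in mre11, against 172 and 188 CPM in WT (log2 fold change -0.51, adjusted p = 0.0607). LOC_Os03g20790 (log2 fold change -0.55, adjusted p = 0.0247) and LOC_Os09g31400 (-0.74, adjusted p = 0.0295) had non-overlapping groups but less than 2-fold differences. The class summed to 177 and 208 CPM in mre11, against 271 and 284 CPM in WT.

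Both EBF genes, whose F-box proteins target EIN3 for removal, were tested and neither was called, also by DESeq2 and limma. LOC_Os06g40360 had 97.3 and 86.6 CPM in mre11, against 159 and 194 CPM in WT (log2 fold change -0.94, SE 0.159, edgeR adjusted p = 0.00671). It was just under 2-fold, and was called lower without mre11 replicate 1 (log2 fold change -1.02) and without WT replicate 1 (-1.09). LOC_Os02g10700 was the most abundant of the 32 tested genes outside the EREBP class by RPKM, the counts per library total and length, with an average of 89.2 RPKM by the length the deposited values imply and 85.0 RPKM by the listed gene length. It had 253 and 269 CPM in mre11, against 270 and 326 CPM in WT (log2 fold change -0.19, adjusted p = 0.376). The difference between the 2 EBF genes in their response was not tested.

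**Figure D3:**
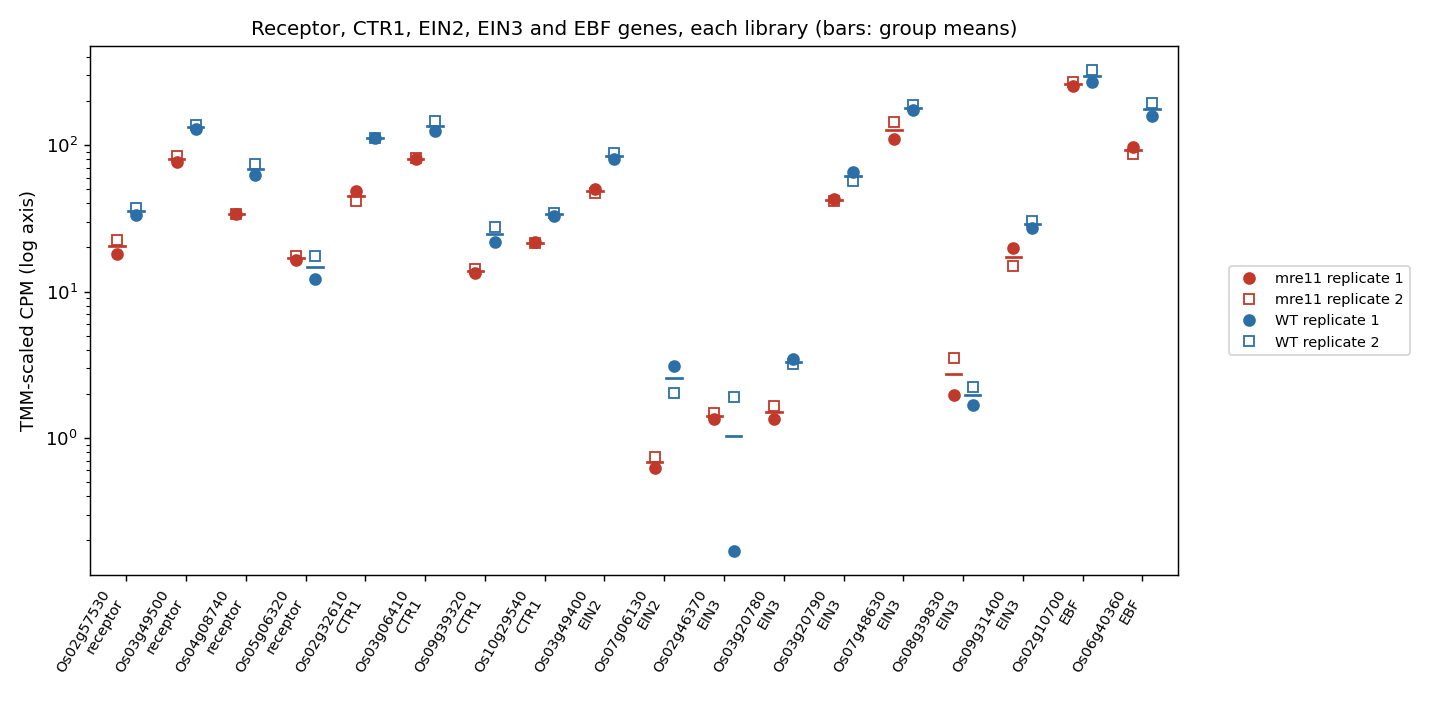
TMM-scaled CPM (log axis) of the tested receptor, CTR1, EIN2, EIN3 and EBF genes in each library, with circles for replicate 1, squares for replicate 2 and bars for the group means. All 4 CTR1 genes and both EIN2 genes have their mre11 points below their WT points, while receptor LOC_Os05g06320 overlaps.

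ERF1, which acts directly under EIN3 in Arabidopsis, was low in every library. The class summed to 6.57 and 8.69 CPM in mre11, against 15.0 and 16.2 CPM in WT. All 4 gene models were tested. In all 4 both mre11 libraries lay below both WT libraries, against 35.7% of all tested genes. Of the 4, 3 were called lower, against 9.31% of all tested genes. Among these 3, LOC_Os03g64260 and LOC_Os07g22770 reached the low-count filter's level in both libraries only in WT. LOC_Os09g39850 had 0.773 and 0.796 CPM in mre11, against 3.02 and 2.93 CPM in WT (log2 fold change -1.91, SE 0.402, edgeR adjusted p = 0.0132). LOC_Os07g22770 had 0.290 and 0.227 CPM in mre11, against 1.01 and 0.891 CPM in WT (log2 fold change -1.83, adjusted p = 0.0463). LOC_Os03g64260 had 0 and 5 counts in mre11, against 11 and 56 counts in WT, with a wide spread within each genotype (log2 fold change -4.03, SE 1.13, adjusted p = 0.0327).

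These ERF1 calls were fragile at this depth. Without mre11 replicate 1, WT replicate 1 or WT replicate 2, 0 of the 4 ERF1 genes were called, and without mre11 replicate 2 LOC_Os03g64260 was. The direction held in each of these fits, with a class median between -1.95 and -1.81. LOC_Os05g37640, the most abundant ERF1 gene, had 5.51 and 7.39 CPM in mre11, against 9.996 and 8.78 CPM in WT, and did not pass the test (log2 fold change -0.54, adjusted p = 0.147).

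The EREBP class held most of the reads of the pathway, with a sum of 2990 and 2957 CPM in mre11, against 4990 and 4880 CPM in WT. Of its 89 gene models 59 were tested. A split by level is given as a description, since the level over all 4 libraries is itself moved by a rise or fall and no difference between the parts was tested. Of the 30 tested EREBP genes at or above the class median of 14.1 CPM over the 4 libraries, 9 were called lower and 1 higher. The higher one was LOC_Os07g47790, which had 0.168 and 0.382 CPM in WT and reached this level through mre11 replicate 1. The median log2 fold change of these 30 was -0.60. Of the 29 under it, 0 were called lower and 6 higher, and their median was 0.64, and LOC_Os05g39590 and LOC_Os09g28440 among these 6 passed the filter through mre11 alone. Over all tested genes, 10.7% were called lower and 9.02% higher at or above this level, and 7.75% lower and 15.3% higher under it.

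Among the falls, LOC_Os03g08500 stood out for its level. It had 105 and 152 CPM in mre11, against 630 and 669 CPM in WT (log2 fold change -2.34, SE 0.218, edgeR adjusted p = 0.00147). LOC_Os09g11480 had 66.7 and 77.3 CPM in mre11, against 364 and 316 CPM in WT (log2 fold change -2.24, SE 0.163, adjusted p = 0.00106). LOC_Os07g42510 had 35.8 and 52.6 CPM in mre11, against 179 and 180 CPM in WT (log2 fold change -2.02, adjusted p = 0.00164). In each of these genes the groups were far apart and the call held without each of the 4 libraries. LOC_Os04g46220 had 53.8 and 45.9 CPM in mre11, against 173 and 197 CPM in WT (log2 fold change -1.89, adjusted p = 0.00122). LOC_Os02g43790 had 4.44 and 8.75 CPM in mre11, against 20.1 and 38.6 CPM in WT (log2 fold change -2.16, adjusted p = 0.0104), and was not called without WT replicate 2 (adjusted p = 0.0698).

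Smaller falls of the same kind were found in LOC_Os09g11460 (log2 fold change -1.45), LOC_Os08g42550 (-1.41), LOC_Os10g42150 (-1.22) and LOC_Os03g60120 (-1.12), all called without each library. LOC_Os09g11460, for example, had 61.4 and 67.3 CPM in mre11, against 190 and 161 CPM in WT. Several other abundant EREBP genes were lower by less than 2-fold and so not called. LOC_Os02g51670, with an average of 167 RPKM by both lengths, had 261 and 248 CPM in mre11, against 415 and 478 CPM in WT (log2 fold change -0.81, adjusted p = 0.00994). LOC_Os03g08470 had 287 and 332 CPM in mre11, against 612 and 500 CPM in WT (log2 fold change -0.84, adjusted p = 0.0134). The level of LOC_Os09g26420, the EREBP gene with the highest CPM, was not shown to differ, at 557 and 544 CPM in mre11, against 493 and 540 CPM in WT (log2 fold change 0.09, SE 0.155, adjusted p = 0.67).

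The EREBP genes called higher were expressed at low levels in WT. LOC_Os01g12440 had 16.3 and 14.4 CPM in mre11, against 5.29 and 4.52 CPM in WT (log2 fold change 1.65, SE 0.228, edgeR adjusted p = 0.00357), and was the only ethylene gene called higher without each of the 4 libraries. LOC_Os09g28440 had 48 and 13 counts in mre11, against 0 and 0 counts in WT. With WT set at a floor of 3 counts per library, the mean of the 2 mre11 libraries was at least 6.90-fold higher (adjusted p = 0.016). That mean was carried by mre11 replicate 1, with 2.32 CPM, against 0.739 CPM in replicate 2 and an average WT floor of 0.221 CPM. LOC_Os05g39590 had 30 and 29 counts in mre11, against 2 and 3 counts in WT, a ratio of 8.51 with a 95% exact interval of 3.45 to 27.2 for counting error only (adjusted p = 0.00957).

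A further 3 calls were modest, LOC_Os02g43940 (log2 fold change 1.38, adjusted p = 0.0483), LOC_Os01g46870 (1.29, adjusted p = 0.0266) and LOC_Os04g46400 (1.11, adjusted p = 0.0251). LOC_Os04g46400, for example, had 6.62 and 6.65 CPM in mre11, against 3.28 and 2.86 CPM in WT. The calls of LOC_Os02g43940 and LOC_Os04g46400 were lost when any of the 4 libraries was left out, with adjusted p between 0.0639 and 0.185. Those of LOC_Os09g28440, LOC_Os05g39590 and LOC_Os01g46870 were lost without either WT replicate. The last 2 of these were also lost without mre11 replicate 2. Without mre11 replicate 1, LOC_Os09g28440 did not pass the low-count filter and so had no test.

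**Figure D4:**
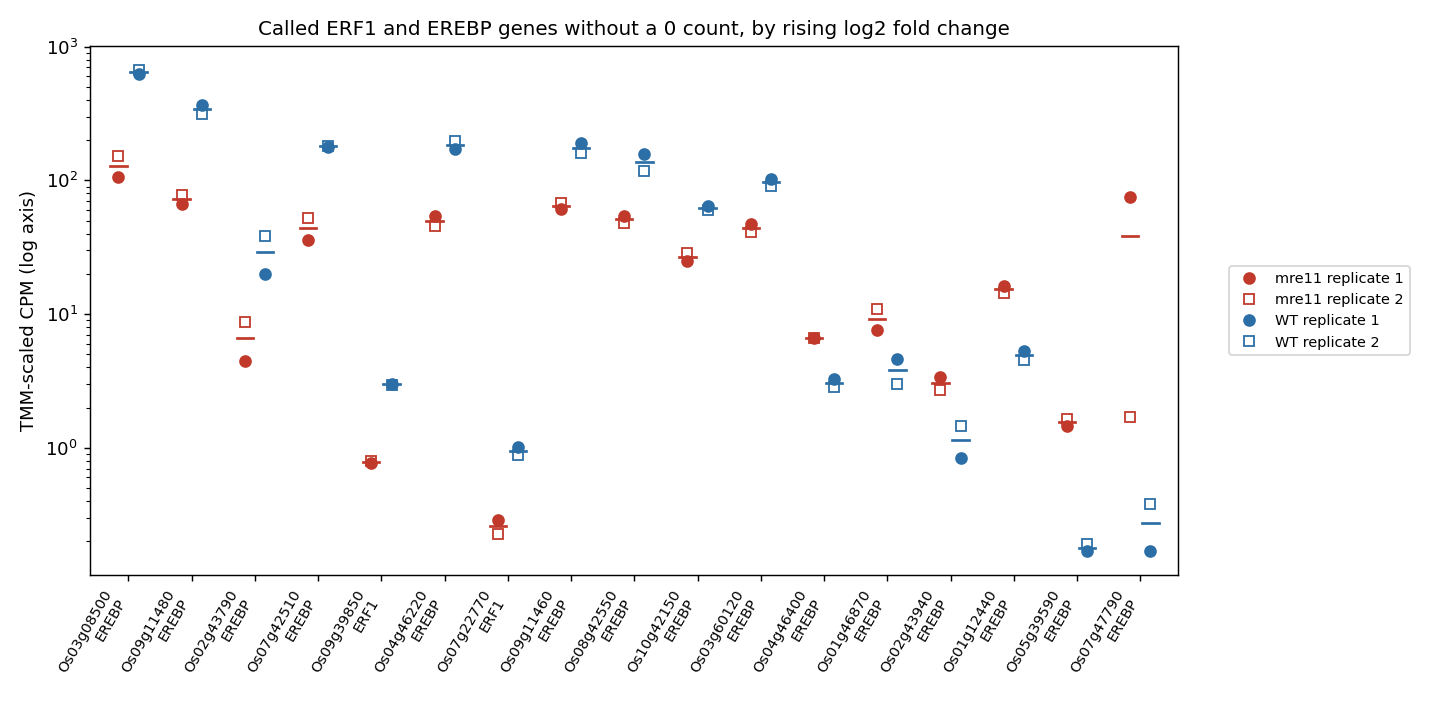
TMM-scaled CPM (log axis) in each library of the called ERF1 and EREBP genes that had no library at 0 counts, ordered by fitted log2 fold change, with circles for replicate 1, squares for replicate 2 and bars for the group means. The genes with falls on the left include most of the abundant ones, those with rises on the right lie mostly under 20 CPM, and LOC_Os07g47790 at the far right has 75.1 CPM in mre11 replicate 1 and 1.70 CPM in mre11 replicate 2.

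LOC_Os07g47790 showed the widest gap between replicates of a genotype. It had 1554 and 30 counts in mre11, against 2 and 6 counts in WT. Both mre11 libraries were above both WT libraries, and the gene was called higher (log2 fold change 7.03, SE 1.94, edgeR adjusted p = 0.0313). It reached the low-count filter's level in both libraries only in mre11. Without mre11 replicate 1 the log2 fold change was 2.56 and the adjusted p was 0.0675, and the call was also lost without WT replicate 1 (0.163) or WT replicate 2 (0.164).

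Another 3 EREBP genes, which were picked out after their values had been seen, were high in the same library. LOC_Os03g22170 had 16.3 and 1.25 CPM in mre11, against 1.51 and 1.85 CPM in WT. LOC_Os05g29810 had 50.5 and 10.5 CPM in mre11, against 19.6 and 6.17 CPM in WT. LOC_Os01g21120 had 86.4 and 18.8 CPM in mre11, against 29.6 and 17.8 CPM in WT. None of these 3 was called, and their fitted log2 fold changes were -0.42, -0.27 and -0.31 without mre11 replicate 1.

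With 0.5 CPM added to every value to damp low counts, mre11 replicate 1 was more than 4-fold above mre11 replicate 2 in these 4 of the 59 EREBP genes, and replicate 2 was more than 4-fold above replicate 1 in 0. This share of 6.78% compares with 0.437% of all tested genes that differed by more than 4-fold in either direction between the mre11 libraries. On the same scale there were 0 such genes among the 32 of the other classes, and 0 of all 91 between the WT libraries. Without the added 0.5 CPM, LOC_Os02g52670 (12 and 1 counts in mre11, against 0 and 20 counts in WT) made it 5 of 59 EREBP genes (8.47%), against 1.33% of all tested genes. Among the other classes, ERF1 gene LOC_Os03g64260 then differed between the mre11 libraries in the other direction. Between the WT libraries LOC_Os02g52670 and EIN3 gene LOC_Os02g46370 (2 and 30 counts) then also differed by more than 4-fold. Across the 91 genes, which are not independent replicates, log2 CPM of mre11 replicate 1 correlated with mre11 replicate 2 at r = 0.940, and mre11 replicate 2 with the WT libraries at 0.956 and 0.951. The WT libraries correlated with each other at 0.986. Over all tested genes the mre11 libraries were closer to each other (0.976) than to WT (0.902 to 0.908).

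**Figure D5:**
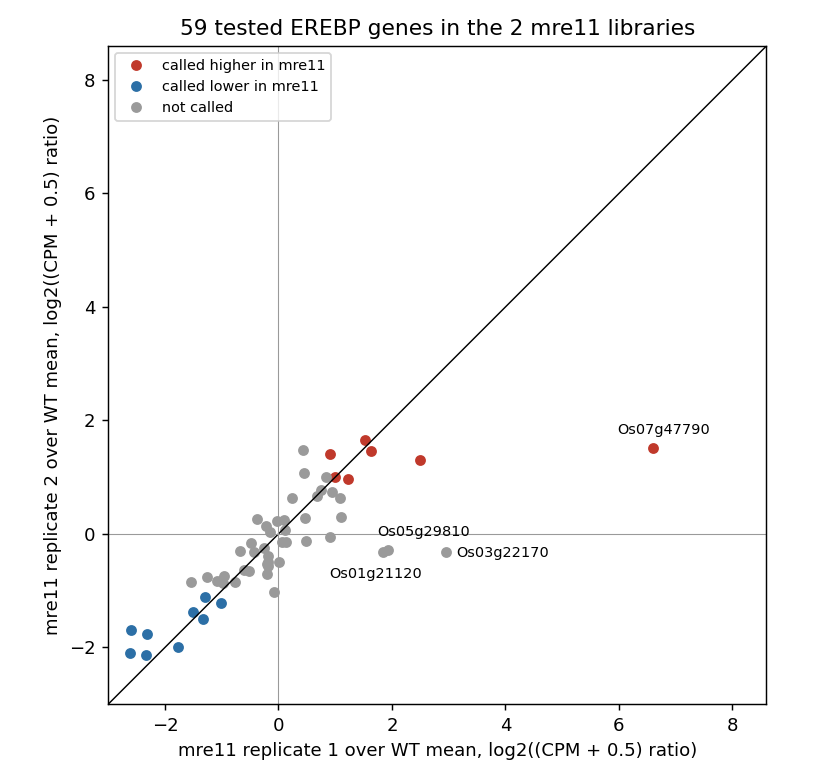
Log2 ratio of (CPM + 0.5) to the WT mean in mre11 replicate 1 (x axis) and in mre11 replicate 2 (y axis) for the 59 tested EREBP genes, coloured by call, with the line of equality. Most genes lie near the line, whereas LOC_Os07g47790, LOC_Os03g22170, LOC_Os05g29810 and LOC_Os01g21120 lie well to its right.

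Some EREBP genes stand close together in the order of the gene models. LOC_Os03g08470, LOC_Os03g08490 and LOC_Os03g08500 had log2 fold changes of -0.84, -0.995 and -2.34, with the adjusted p under 0.05 in all 3 genes and 1 call. LOC_Os09g11460 and LOC_Os09g11480, 2 models apart, were both called lower. LOC_Os02g43790 was called lower, and LOC_Os02g43820, 3 models away, had a log2 fold change of -1.65 that did not pass the test. LOC_Os02g43820 reached the low-count filter's level in both libraries only in WT. LOC_Os02g43940, a further 14 models on, was called higher, and LOC_Os02g43970, 3 models from it, had a log2 fold change of 0.91 and was not called. Near-identical copies can share reads, so values of close neighbours are uncertain where the counting could split them.

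The 49 untested genes had few or no counts in these seedlings. Of these, 21 had 0 counts in all 4 libraries, 29 had at most 3 counts in every library, and the highest count in any library was 22. They included 30 EREBP genes, among them LOC_Os04g46240 with 8 and 22 counts in mre11, against 0 and 1 counts in WT. With a floor of 3 counts per library, 0 counts allow up to 0.145 and 0.170 CPM in the mre11 libraries and up to 0.252 and 0.191 CPM in the WT libraries, so expression under these levels was not detectable. The GO terms of the deposited annotation overlapped little with the KO classes. Of the 89 EREBP genes, 30 carried the term for sequence-specific DNA-binding transcription factor activity, 31 had no GO term and 0 had a term that names ethylene. Of the 140 genes, 15 had such a term. The membership therefore rests on KO alone, and 3 EREBP genes, LOC_Os09g11480 and LOC_Os04g46220 among them, carried instead the term of 1-deoxy-D-xylulose-5-phosphate reductoisomerase activity, an enzyme of isoprenoid synthesis. The same term was given to light-harvesting gene LOC_Os01g41710 and Rubisco gene LOC_Os12g19381, so it is no guide to what these EREBP genes encode.

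Genes at the borders of the pathway were taken from the same annotation. These comprised genes of the methionine cycle, the kinase MPK6, related AP2 factors and further genes whose GO terms name ethylene, 118 in all. Of these, 97 were tested, 16 (16.5%) were called higher and 5 (5.15%) lower, against 12.0% and 9.31% of all tested genes, and the median log2 fold change was -0.05. The methylthioadenosine nucleosidase and acireductone dioxygenase genes, which act in the cycle that returns the methylthio group left over from ACC synthesis to methionine, had 1 call among the 4 tested. LOC_Os10g28350, an acireductone dioxygenase gene, had 515 and 262 counts in mre11, against 78 and 76 counts in WT, and was called higher (log2 fold change 1.81, SE 0.317, edgeR adjusted p = 0.00736). Its neighbour LOC_Os10g28360 of the same class (log2 fold change 0.96, adjusted p = 0.00578) and the methylthioadenosine nucleosidase gene LOC_Os06g02220 (0.69, adjusted p = 0.00977) had non-overlapping groups but did not reach 2-fold.

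The S-adenosylmethionine synthetase genes, which supply the substrate of ACC synthase, had 0 calls among the 2 tested. LOC_Os01g22010 had 446 and 533 CPM in mre11, against 328 and 307 CPM in WT (log2 fold change 0.62, adjusted p = 0.0272). LOC_Os05g04510 had 754 and 750 CPM in mre11, against 879 and 1040 CPM in WT (log2 fold change -0.35, adjusted p = 0.156). The MPK6 gene LOC_Os06g06090, which encodes a mitogen-activated protein kinase, had a log2 fold change of 0.40 and an adjusted p of 0.0506. Among the related AP2-domain factors, 2 of 10 tested RAV-like genes (20%) and 2 of 19 tested ANT-like genes (10.5%) were called higher. These compare with 12.0% of all tested genes, and 0 were called lower, against 9.31% of all. Only 2 of the 10 RAV-like genes had a log2 fold change above 0, with a median of -0.15. The RAV-like genes summed to 199 and 163 CPM in mre11, against 324 and 286 CPM in WT. The ANT-like median was 0.07, and 0 of 5 tested euAP2 genes were called. Of the 56 tested genes whose GO terms name ethylene, 11 (19.6%) were called higher and 5 (8.93%) lower, against 12.0% and 9.31% of all tested genes, with a median of -0.11.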

How the data were processed

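Reads had been aligned to the rice pseudomolecules, version 7.0, and counted on genes with HTSeq 0.6.1. The authors deposited the raw counts of 55986 gene models for each library, with RPKM values. In 39 ethylene genes with over 300 counts in every library, these RPKM values were the counts divided by the library total and by a length that was the same in all libraries to within 0.0933%, but was 0.399 to 2.21 times the listed gene length. RPKM comparisons between genes depend on that length. The aligner's settings and the strand setting of the counting are not given in the sources used here, so overlapping, antisense and near-identical genes are uncertain. The submitters' processing notes also name DESeq2 1.6.3.

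For the test, the deposited counts were filtered with filterByExpr, scaled by TMM and fitted with genotype as the only term by glmQLFit and glmQLFTest of edgeR 4.0.16 (in R 4.3.3), with Benjamini-Hochberg adjustment over 24470 genes. The dispersion common to all genes was 0.0384. Fold changes give mre11 relative to WT, and their standard errors were derived from the quasi-likelihood F. With 2 libraries per genotype an exact two-sided permutation test of a single gene cannot go below p = 0.33, so p-values rest on spread shared across genes. Nothing says how the pooled plants of a genotype were kept apart, and the p-values measure only the spread between these libraries. Floors and intervals cover counting error only.

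The named genes were, outside ERF1 and EREBP, every called gene and the gene with the highest CPM of each class. For ERF1 and EREBP they were up to 8 rises and 8 falls among called genes without overlap, and the 4 with the highest CPM. The remaining ones were added after their values had been seen. The members and lists were chosen with earlier results of these data known. The alternatives were DESeq2 1.42.0, 2 other scalings, no filter, other thresholds, a replicate block, limma 3.58.1 on log2 of RPKM plus 1 or 0.1, and leaving out each library. The replicate difference without an added 0.5 CPM was chosen after seeing the data.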

Additional observations from a re-analysis of the deposited data

How the results depend on the processing

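The numbers of ethylene genes called, 8 higher and 18 lower in mre11, changed with some settings. With no filter on low counts 13 were called higher, with 119 ethylene genes tested. The cause of this change was not tested. With an adjusted p under 0.01, 3 were called higher, and without the fold threshold 34 were called lower. Leaving out each library gave 1 to 8 higher and 11 to 18 lower, the fewest without a WT library. The median log2 fold change of -0.49 was -0.21 with DESeq2, -0.33 with library-size scaling, -0.18 with no filter, -0.20 with limma on log2(RPKM + 1) and -0.22 with limma on log2(RPKM + 0.1), and it ranged from -0.50 to -0.37 without each library. Over the same 91 genes it was -0.50 with DESeq2 and -0.48 with no filter. The cause of the limma values was not tested. The median of all genes was 0.03 with TMM, 0.11 with upper-quartile and 0.19 with library-size scaling, and relative to it the ethylene median was -0.52 under all 3. Of the called ethylene genes, 30.8% were higher with TMM, against 41.7% with library-size scaling, 41.9% with no filter, 43.5% with limma on log2(RPKM + 0.1) and 20% at an adjusted p under 0.01, and 6.25% or 8.33% without WT replicate 1 or 2. Over all tested genes the same share was 56.3% with TMM, 68.9% with library-size scaling, 57.9% with no filter, 68.7% with limma on log2(RPKM + 0.1), 51.9% at an adjusted p under 0.01, and 54.4% or 51.3% without WT replicate 1 or 2. None of the 31 genes named by the rule above reversed its direction under any alternative in which it was tested. Some of the genes added after their values had been seen did reverse. Without mre11 replicate 1, LOC_Os03g22170, LOC_Os05g29810 and LOC_Os01g21120 went from log2 fold changes of 2.38, 1.26 and 1.16 to -0.42, -0.27 and -0.31. Receptor LOC_Os05g06320 went from 0.19 to -0.05 without WT replicate 1. Of these 31 genes, 11 lost their call at an adjusted p under 0.01, and 7 and 5 with limma on log2(RPKM + 1) and log2(RPKM + 0.1). Another 3 each lost it with DESeq2, upper-quartile scaling, library-size scaling and no filter. Leaving out any single library also ended calls among them. Without mre11 replicate 1, LOC_Os09g28440 did not pass the low-count filter and so had no test.

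The replicate numbers in the labels are not said to pair the libraries. The deviations of the same-numbered mre11 and WT libraries from their group means correlated at r = 0.0072 across 24470 genes. With the number as a replicate block, 4967 genes were called in all, against 5207 without, and of the ethylene genes 8 were higher and 17 lower, with a median of -0.46. The block ended the calls of 4 named genes, the receptor LOC_Os04g08740 (log2 fold change -0.998), the ACC synthase gene LOC_Os03g51740, the ERF1 gene LOC_Os07g22770 and the EREBP gene LOC_Os02g43940, so that 0 receptors were called. Differences under the floor of 3 counts per library were not detectable.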
